A study of Mus musculus with 20 samples.

Results

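The lysosome is the acid, degradative compartment of the cell, and 35 genes that build or control it were followed at their chromatin in mouse hematopoietic stem cells (HSC). They were taken by symbol from 21631 protein-coding genes of the mm10 genome. They comprised 3 MiT/TFE transcription factors, 15 V-ATPase genes, 11 genes for hydrolases and other luminal proteins and 6 genes for lysosomal membrane proteins. All 35 symbols were found. A gene was said to carry a peak when a peak of a library came within 1 kb of either annotated end.

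HSC were sorted from adult mice that had all been given poly(I:C). Knockout (KO) mice were Mx1-Cre+/-;mTORflox/flox, and wild-type (WT) controls were Mx1-Cre-/-;mTORflox/flox, so the controls carried the same floxed Mtor alleles and no Cre. KO MycHet mice were Mx1-Cre+/-;mTORflox/flox;c-Myc+/flox, so that Cre can also delete 1 of the 2 copies of Myc. H3K27ac, H3K4me3 and MYC were profiled by ChIP-seq in 1 KO and 1 WT library each, and accessible chromatin by ATAC-seq in 2 KO MycHet, 2 KO and 2 WT libraries. The Mx1 promoter responds to interferon and is active in many cell types besides HSC, so Mtor is not lost from HSC alone in such mice. Whether cells of several animals were pooled in a library is not given in the labels.

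The mTOR complex mTORC1 is activated on the lysosomal surface, where the V-ATPase takes part in sensing amino acids. Active mTORC1 phosphorylates TFEB and TFE3 and holds them in the cytoplasm, and when it is inactive they enter the nucleus and bind an E-box core, CACGTG, at lysosomal genes. MYC with its partner MAX binds the same core, and MYC and the MiT/TFE factors are known to oppose each other at lysosomal genes in other cells.

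Mtor, the deleted gene, checked the labels. It had a peak at its lower end, the end with the smaller coordinate, in 0 of 7 KO and KO MycHet libraries and in 5 of 5 WT libraries. Of 12 HSC marker genes, 8 carried H3K4me3 in KO and 8 in WT. Of 12 markers of macrophages and mature myeloid cells, which are rich in lysosomes, 2 carried H3K4me3 in KO and 3 in WT, 2 carried H3K27ac in KO and 1 in WT, and 0 carried MYC in either genotype. Accessible chromatin at those myeloid markers was found at 9 and 8 genes in KO MycHet, 0 and 11 in KO, and 1 and 10 in WT, and their part in the results below was not tested. The lists differed in length. H3K27ac had 20036 peaks in KO and 10078 in WT, MYC had 22086 in KO and 8774 in WT, and H3K4me3 had 16019 in KO and 15089 in WT. Peak lists hold no read counts, so depth is unknown, and more marked regions and a deeper or cleaner library cannot be told apart. With 1 ChIP-seq library per genotype there was no replicate and no test, so each count is set beside the same count over all genes.

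The E-box core was found in a larger share of these promoters than of promoters over all genes. RefSeq promoters (GRCm38.p6, the mm10 assembly), each spanning 250 bases before to 50 after a transcript start, were found for 29 of the 35 genes, and 10 of these 29 (34.5%) held CACGTG, against 9.02% of 17274 genes with a promoter in the table and 11.7% of 9059 genes that also carried H3K4me3 in both genotypes. CACGTG reads the same on both strands. The longer palindrome TCACGTGA, which contains it, was in 6 promoters (20.7%), against 1.42% of all genes and 2.26% of those with H3K4me3. The related TCATGTGA, searched on both strands, was in 3 promoters (10.3%), those of Atp6v0c, Tpp1 and Grn, against 1.01% and 0.817%. The 150 bases before the start are shown for 7 genes that differ in what lay over the core, 5′ to 3′ on the gene's strand, with each CACGTG in capitals. Positions count the start as 0.

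Gaa, the acid alpha-glucosidase that breaks down glycogen, and Ctsd, the protease cathepsin D, had MYC peaks over the core in KO only. The Gaa stretch is chr11:119267813-119267962 on the plus strand and the Ctsd stretch is chr7:142387828-142387977 on the minus strand.
Gaa: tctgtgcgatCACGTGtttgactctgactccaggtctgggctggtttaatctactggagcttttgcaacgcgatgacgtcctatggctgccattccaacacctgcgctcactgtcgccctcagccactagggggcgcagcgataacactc
Ctsd: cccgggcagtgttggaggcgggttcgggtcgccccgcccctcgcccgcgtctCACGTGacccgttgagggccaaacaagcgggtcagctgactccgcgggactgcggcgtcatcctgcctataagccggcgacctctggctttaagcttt
Atp6v1a, the catalytic A subunit of the V1 sector, had a MYC peak over the core in KO and another, shared by both genotypes, away from it. Its stretch is chr16:44139260-44139409 on the minus strand.
Atp6v1a: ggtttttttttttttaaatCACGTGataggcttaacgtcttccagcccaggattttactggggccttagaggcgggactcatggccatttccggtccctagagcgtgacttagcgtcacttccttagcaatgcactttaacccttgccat
Lamp1, the major glycoprotein of the lysosomal membrane, held 4 copies, and its KO MYC peak lay beside them. Its stretch is chr8:13159011-13159160 on the plus strand.
Lamp1: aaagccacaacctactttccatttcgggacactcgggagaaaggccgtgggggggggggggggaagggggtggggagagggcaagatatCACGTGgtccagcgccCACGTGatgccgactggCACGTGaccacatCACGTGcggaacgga
Mcoln1, the calcium channel of the lysosomal membrane, Atp6v0b, a proteolipid subunit of the V0 ring, and Glb1, the beta-galactosidase, held the core with no MYC peak at either gene end. Their stretches are chr8:3500369-3500518 on the plus strand, chr4:117887330-117887479 on the minus strand and chr9:114400928-114401077 on the plus strand.
Mcoln1: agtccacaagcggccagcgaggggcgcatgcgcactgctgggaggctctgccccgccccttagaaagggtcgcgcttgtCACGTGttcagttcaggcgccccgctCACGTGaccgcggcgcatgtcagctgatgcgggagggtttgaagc
Atp6v0b: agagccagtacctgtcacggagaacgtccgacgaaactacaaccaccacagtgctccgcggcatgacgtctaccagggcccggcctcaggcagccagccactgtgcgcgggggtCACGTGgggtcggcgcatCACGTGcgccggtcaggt
Glb1: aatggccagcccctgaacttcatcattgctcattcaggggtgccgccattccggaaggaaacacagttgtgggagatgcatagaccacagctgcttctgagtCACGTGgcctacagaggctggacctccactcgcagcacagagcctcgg

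**Figure D1:**
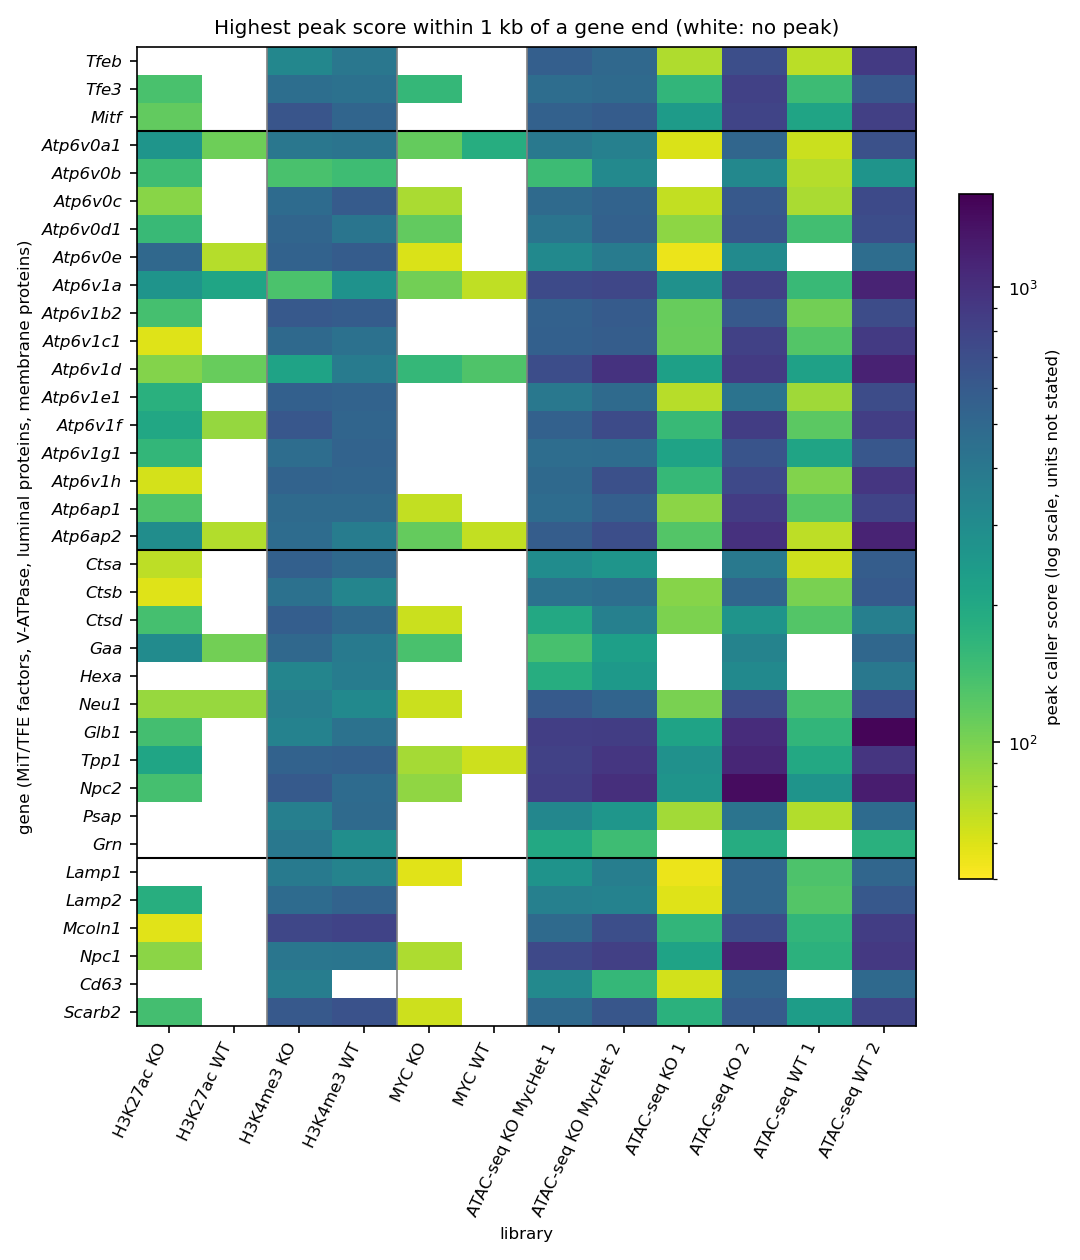
Highest score of a peak within 1 kb of an end of each of the 35 genes (rows, by role) in each of the 12 libraries (columns), on a log colour scale of the authors' peak caller score, with white for no peak. H3K4me3 fills 35 rows in KO and 34 in WT, whereas H3K27ac fills 29 in KO and 8 in WT and MYC fills 17 in KO and 5 in WT.

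H3K4me3, the mark of active promoters, lay at nearly all of these genes in both genotypes. It was present at 35 of 35 genes in KO and at 34 of 35 in WT, against 54.3% and 52.9% of all genes. Cd63, a tetraspanin of late endosomes and lysosomes, was the 1 gene called in KO only (2.86%, against 2.94% of all genes), and 0 genes were called in WT only, against 1.52% of all genes. At Cd63 the mark was in fact found in both: its KO peak, with a score of 370.08, overlapped a WT peak with a score of 306.19 that lay just outside the window, around an internal start of the gene. Scores are the authors' peak caller values on a scale that no label states, and they rank peaks within a list. Scores of KO and WT are given side by side as values, since whether they share a scale was not checked.

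H3K4me3 peaks were broader in KO at most members, as they were over the genome. Of the 34 genes with a peak in both genotypes, 32 (94.1%) had the wider peak in KO, with a median KO to WT width ratio of 1.26, against 91.9% and 1.22 over 11109 genes. The exceptions were Mitf, a MiT/TFE factor known from pigment cells, with 2701 bp in KO and 3029 bp in WT, and Grn, the progranulin precursor, with 3557 bp in KO and 3602 bp in WT. The broadest domains were those of Atp6v1a, with 7565 bp in KO and 6181 bp in WT, and of Atp6v1d, the D subunit of the V1 rotor stalk, with 7111 bp in KO and 5953 bp in WT. At both, the domain also reached the end of another gene, Naa50 beside Atp6v1a and Eif2s1 beside Atp6v1d. Their scores were 132.59 in KO and 273.13 in WT for Atp6v1a and at 213.35 in KO and 376.07 in WT for Atp6v1d.

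**Figure D2:**
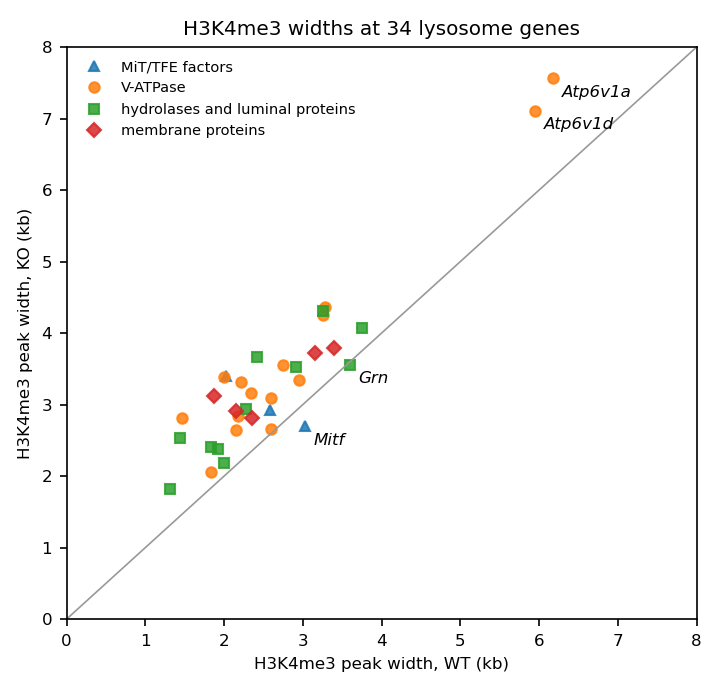
Width of the H3K4me3 peak in KO (vertical axis, kb) and WT (horizontal axis, kb) at the 34 genes with a peak in both genotypes, 1 point per gene by role, with the line of equal width. 32 points lie above the line, Mitf and Grn lie below it, and Atp6v1a and Atp6v1d stand apart as the broadest.

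H3K27ac, which marks active promoters and enhancers, separated the genotypes at most members. It was present at 29 of 35 genes in KO (82.9%) and at 8 of 35 in WT (22.9%), against 39.6% and 14.6% of all genes. It was called in KO only at 21 genes (60.0%, against 25.8% of all genes) and in WT only at 0 genes, against 0.767% of all genes. Since these genes nearly all carry H3K4me3, the closer background is the 11109 genes with H3K4me3 in both genotypes. Of these 11109, 72.5% carried H3K27ac in KO and 26.6% in WT. Among the 34 members of that set, 21 (61.8%) were KO only, against 46.7%, and 0 were WT only, against 0.855%. When the KO list was shortened to its highest 10078 peaks, equal in number to the WT list, 14 of 35 (40.0%) were KO only, against 18.4% of all genes, and 14 of the 34 (41.2%), against 34.2%. With these lists 2 genes, Atp6v1d and Neu1, were WT only (5.71%, against 1.78% of all genes), which is 5.88% of the 34, against 2.48%. The members therefore lay nearer to their background once the lists were equal in length.

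Among the MiT/TFE factors, Tfe3 had an H3K27ac peak with a score of 135.9 in KO and none in WT, and Mitf had one of 115.43 in KO and none in WT. Tfeb, the factor best known for control of lysosomal genes, had none at either end in either genotype, although its H3K4me3 scored 321.93 in KO and 402.25 in WT.

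All 15 V-ATPase genes carried H3K27ac in KO, and 6 of them (40.0%) did in WT. Of genes with H3K4me3 in both genotypes, 72.5% carried it in KO and 26.6% in WT, and of all genes 39.6% and 14.6%. The 6 with a peak in both were Atp6v0a1, Atp6v0e, Atp6v1a, Atp6v1d, Atp6v1f and the accessory protein and prorenin receptor Atp6ap2. Atp6v0e, a small V0 subunit, had the highest KO score of the 35 genes, 498.45 in KO against 73.55 in WT, with a width of 3010 bp in KO and 914 bp in WT. Atp6v1a had the highest WT score, at 267.38 in KO and 207.44 in WT. That WT peak was in the top 2.07% of its list by score, and the KO peak in the top 14.7% of its own. Atp6ap2 scored 292.72 in KO and 74.46 in WT, Atp6v0a1, the a1 subunit of the V0 proton channel, 261.75 in KO and 106.88 in WT, and Atp6v1f, the F subunit of the V1 stalk, 199.2 in KO and 86.09 in WT. Atp6v1d scored 95.57 in KO and 111.72 in WT, and its peak spanned 6105 bp in KO and 1163 bp in WT.

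The 9 V-ATPase genes with H3K27ac in KO only ranged in score over their highest peaks between 59.22 and 177.32. In the V0 sector they were Atp6v0b at 146.03, Atp6v0d1, which couples the V0 ring to the stalk, at 151.93, and the proteolipid Atp6v0c at 92.19, whose peak was the broadest at 6946 bp. In the V1 sector they were Atp6v1e1 (a peripheral stalk subunit) at 177.32, Atp6v1g1 (its stalk partner) at 161.81, Atp6v1b2 (the nucleotide-binding B subunit) at 138.24, Atp6v1h (the regulatory H subunit) at 62.68 and Atp6v1c1 (the C subunit that joins V1 to V0) at 59.22. The accessory protein Atp6ap1 scored 129.9. Atp6v1c1 stood apart in position, because its KO peak was at the upper end of the gene, overlapped no H3K4me3 peak and so did not lie at the H3K4me3 promoter at the lower end.

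Of the 11 luminal genes, 8 carried H3K27ac in KO (72.7%) and 2 in WT (18.2%), against 39.6% and 14.6% of all genes. Of genes with H3K4me3 in both genotypes, 72.5% carried it in KO and 26.6% in WT. Gaa scored 299.7 in KO and 105.03 in WT. Neu1, the sialidase that trims glycoproteins, had scores of 84.97 in KO and 85.52 in WT. The 6 genes with a peak in KO only were the protease Tpp1 at 209.97, Glb1 at 141.76, Ctsd at 138.56, the cholesterol carrier Npc2 at 138.49, the protective protein Ctsa at 70.5 and the protease cathepsin B, Ctsb, at 59.52. Hexa, the alpha subunit of beta-hexosaminidase, Psap, the precursor of the saposins, and Grn carried H3K4me3 and no H3K27ac in either genotype. At the membrane, Lamp2, a partner of chaperone-mediated autophagy, scored 181.09 in KO, Scarb2, the receptor that carries beta-glucocerebrosidase, 140.89, the cholesterol exporter Npc1 91.28 and Mcoln1 58.29, with no WT peak at any of these 4. Lamp1 and Cd63 had no H3K27ac peak in the windows in either genotype.

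A gene in KO only has no WT peak in its windows, but its KO peak can reach a WT peak beyond them. WT peaks that lie nearby without overlap were not counted. At 0 of the 21 did the KO peaks overlap a WT H3K27ac peak, at 20 they overlapped the KO H3K4me3 domain, and at 15 of the 15 with an annotated start a KO peak lay within 1 kb of it. At 7 of the 21 a peak also lay at the end of another gene, such as Taf10 and Ilk beside Tpp1 or Isca2 beside Npc2, and the peak cannot be given to 1 gene. Where both genotypes had a peak, it was wider in KO at 8 of 8 genes, against 99.9% of 2983 genes.

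**Figure D3:**
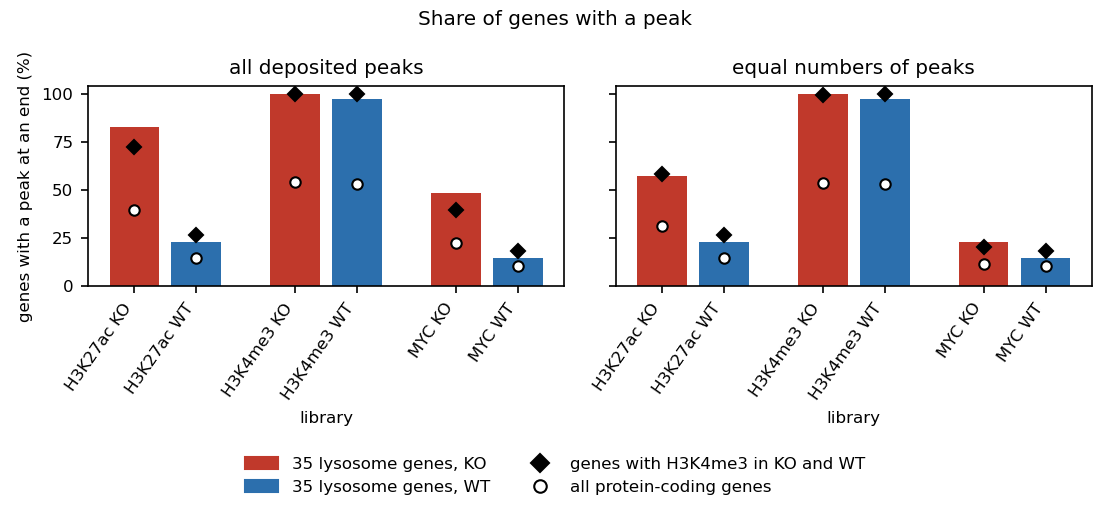
Share of genes with a peak at an end (percent) in each ChIP-seq library, KO left of WT, with all deposited peaks (left panel) and with the longer list cut to the length of the shorter (right panel), for the 35 lysosome genes (bars), genes with H3K4me3 in KO and WT (diamonds) and all protein-coding genes (circles). With all peaks the H3K27ac bars are 82.9% in KO and 22.9% in WT, and with equal numbers they are 57.1% in KO and 22.9% in WT, beside diamonds at 58.4% and 26.6%.

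MYC was present at 17 of 35 genes in KO (48.6%) and at 5 in WT (14.3%), against 22.3% and 10.3% of all genes. Of genes with H3K4me3 in both genotypes, 39.3% had a MYC peak in KO and 18.2% in WT. The WT share of the members thus lay below that background. With lists of equal length, 22.9% of the members had a MYC peak in KO, against 20.4% of those genes. It was called in KO only at 12 genes (34.3%, against 14.4% of all genes) and in WT only at 0, against 2.35% of all genes. Among the 34 genes with H3K4me3 in both genotypes, 12 (35.3%) were KO only, against 24.8% of the 11109, and 0 were WT only, against 3.71%. The count was smaller with lists of equal length: with 8774 peaks in each, 4 of 35 genes were KO only (11.4%, against 5.67% of all genes), namely Tfe3, Atp6v0d1, Gaa and Npc2. At that length 1 gene, Tpp1, was WT only (2.86%, against 4.59% of all genes). The 4 genes in KO only were also 4 of the 34 with H3K4me3 (11.8%, against 9.96%). At scores of at least 100 in both lists, which takes their scales as equal, 5 genes were KO only (14.3%, against 6.17% of all genes).

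Of the transcription factors, Tfe3 had the highest MYC score of the 35 genes in KO, 159.61, with no WT peak. The peak was centred 20 bp from its start. Tfeb and Mitf had no MYC peak at their ends in either genotype. In the V0 sector of the proton pump, 3 of 5 genes were KO only, namely Atp6v0d1 at 114.5, Atp6v0c at 77.89 and Atp6v0e at 60.74. The peak of Atp6v0d1 also lay at the end of Agrp. The score of Atp6v0c is that of a peak at its lower end, beside Amdhd2, and the peak at its start scored 66.04. In the V1 sector, 0 of 8 genes were KO only, 2 had a peak in both genotypes and 6 had none. The difference between the sectors was not tested, and both counts depend on the settings: at equal list lengths Atp6v0d1 was the 1 V0 gene in KO only, and Atp6v1a of V1 was KO only with a 500 bp window, at scores of at least 100, by peak centre and at the annotated start only. Atp6v1d scored 158.74 in KO and 130.51 in WT, Atp6v1a 104.44 in KO and 69.97 in WT, and of the accessory proteins Atp6ap2 scored 113.48 in KO and 68.33 in WT and Atp6ap1 69.03 in KO with no WT peak. The peaks of Atp6v1d and Atp6v1a also lay at the ends of Eif2s1 and Naa50.

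The MYC peak of Atp6v0a1 was called in both genotypes but did not lie in 1 place. Near the start its peak scored 113.5 in KO and 183.53 in WT, and those peaks did not overlap: the KO peak ran between -1187 and 379 bp and the WT peak between -2464 and -1365 bp from the most upstream start. At the far end of the gene its peaks did overlap, with scores of 76.19 in KO and 133.44 in WT. Tpp1, too, was called in both, with 79.72 in KO and 64.98 in WT, but its peak lay at the gene's lower end, beside Taf10, and none lay at its own start.

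Among the remaining luminal and membrane genes, 7 had MYC in KO only. These were Gaa at 134.44, Npc2 at 88.78, Npc1 at 76.45, Neu1 at 66.22, Ctsd at 65.58, Scarb2 at 64.89 and Lamp1 at 58.43. At 0 of the 12 genes in KO only did the KO peak overlap a WT MYC peak, at 12 it overlapped KO H3K4me3, and at 11 of the 11 with an annotated start it was centred within 1 kb of it. Ctsa, Ctsb, Hexa, Glb1, Psap, Grn, Lamp2, Mcoln1 and Cd63 had no MYC peak at an end in either genotype. At 5 of the 12 a KO peak lay at another gene's end as well, and among the 27 members whose MYC peaks lay at no other gene 7 were KO only (25.9%).

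Some of the E-box cores lay under MYC peaks in KO, and none did in WT. The 10 promoters held 17 copies of CACGTG, of which KO MYC peaks covered 6 copies in 5 genes, Ctsd, Gaa, Atp6v0d1, Atp6v0e and Atp6v1a, and WT MYC peaks covered 0. The KO list is the longer, with 22086 peaks against 8774, and the share of copies covered over all promoters was not counted. By score, the peaks over the cores of Ctsd, Atp6v0e and Atp6v1a were in the top 60.9%, 69.8% and 82.2% of the KO list. Those of Gaa and Atp6v0d1 were in the top 14.3% and 20.6%, and these genes were KO only at equal list lengths too. In Ctsd both copies, at -245 and -98, lay in the KO peak. In Atp6v1a the copy at -131 lay in a KO peak that scored 55.66, and the shared MYC peak was 944 bp from it in KO and 1112 bp in WT. In Lamp1 the KO MYC peak ended 156 bp before the first of the 4 copies.

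MYC peaks were found at members with and without a core. A KO MYC peak lay at 6 of the 10 genes with a core (60.0%) and at 10 of the 19 without (52.6%). Over all genes with a promoter the shares were 31.7% with a core and 22.4% without, and over those with H3K4me3 43.2% and 40.0%. In WT the members with a MYC peak were 1 of 10 with a core (10.0%) and 4 of 19 without (21.1%). Tfe3 and Npc2, 2 of the genes with MYC in KO only at equal list lengths, had no CACGTG in the 300 bases searched. All 17 copies, in 10 of 10 genes, lay in H3K4me3 peaks in KO, and 13 copies, in 9 of 10 genes, did in WT. The copies left out in WT were the 4 of Lamp1, whose WT peak began 23 bp past the start. H3K27ac peaks covered 9 copies in 7 genes in KO and 2 copies, those of Gaa and Atp6v1a, in WT.

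**Figure D4:**
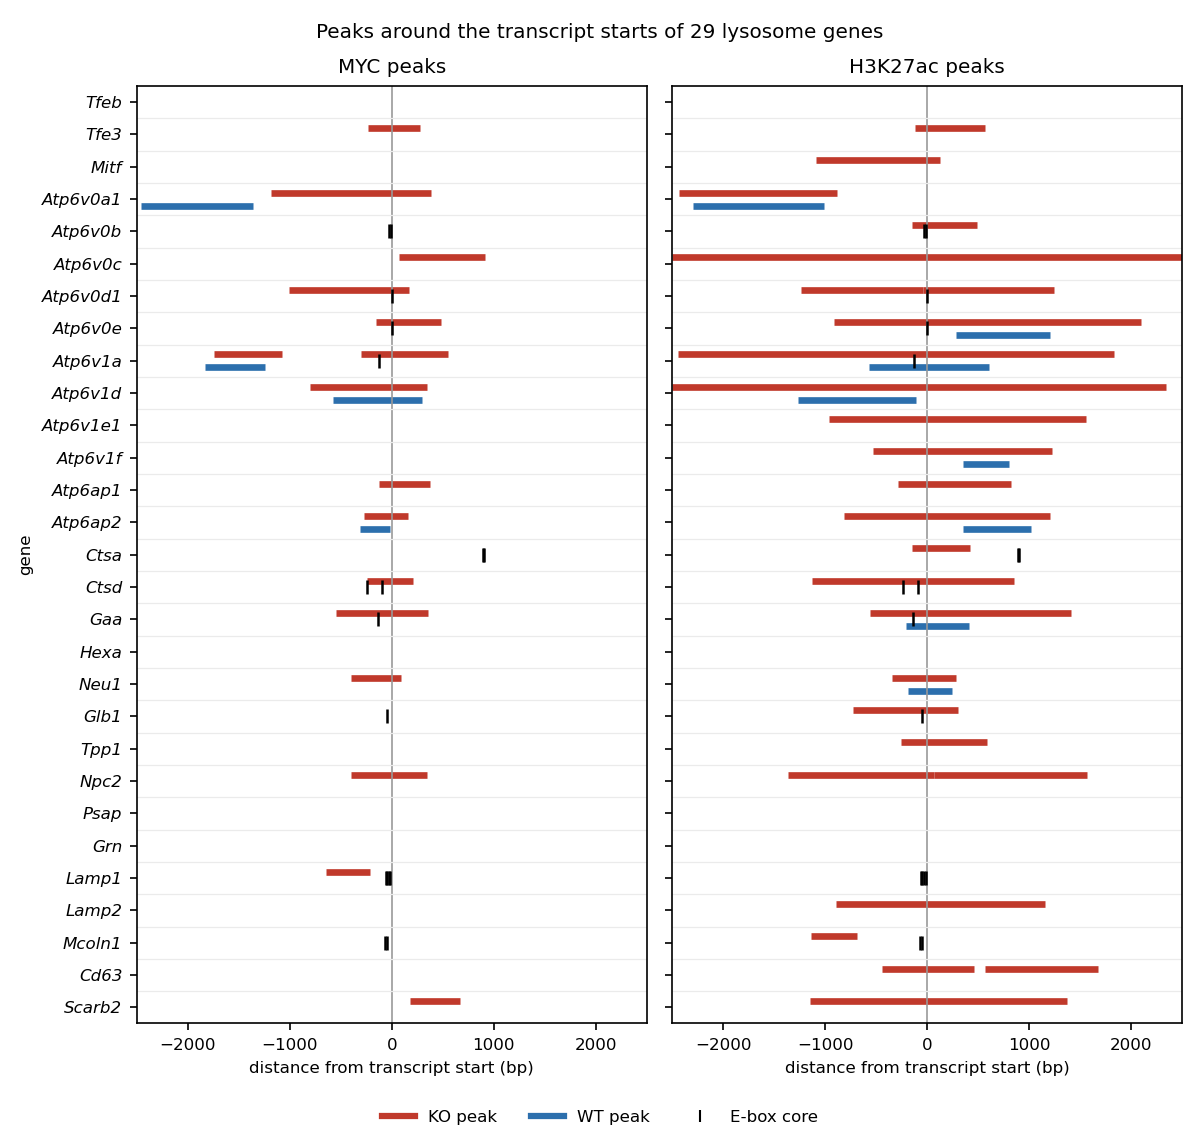
MYC peaks (left) and H3K27ac peaks (right) around the most upstream annotated transcript start of the 29 members with a promoter in the table, as distance from the start in bp along the gene's strand, with KO peaks above WT peaks and black ticks at each E-box core. KO MYC peaks cover cores of Ctsd, Gaa, Atp6v0d1, Atp6v0e and Atp6v1a, no WT MYC peak covers one, and at Atp6v0a1 the MYC peaks of KO and WT lie apart.

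The KO-only calls of MYC and H3K27ac fell in part on the same genes. Of the 12 genes with MYC in KO only, 8 also had H3K27ac in KO only, 3 had H3K27ac in both genotypes and 1, Lamp1, in neither. Read the other way, 8 of the 21 members with H3K27ac in KO only (38.1%) had MYC in KO only, against 28.7% of 5187 genes of that class with H3K4me3 in both genotypes. The other 13 of the 21 had no such MYC peak: 12 had MYC in neither genotype, Mitf and Lamp2 among them, and Tpp1 had it in both. Of the 8 members with H3K27ac in both genotypes, 3 had MYC in KO only (37.5%, against 33.5% of 2865 genes). A KO MYC peak of any class lay at 7 of the 8 (87.5%, against 67.5%) and at 9 of the 21 (42.9%, against 39.5%).

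Chromatin at these genes was accessible in all 3 genotypes. Each of the 35 genes had an ATAC-seq peak in both KO MycHet libraries, in KO library 2 and in WT library 2. Of genes with H3K4me3 in both genotypes, 97.5% and 97.4% had one in the KO MycHet libraries. In KO library 2 and WT library 2 those shares were 98.0% and 98.7%. In KO library 1 and in WT library 1, 30 of 35 members had a peak (85.7%), against 79.6% and 80.4% of such genes. Having a peak in the longer lists thus set the members little apart from that background. The lists of KO library 1 and WT library 1 were short, with 19174 peaks in KO and 17303 in WT, against 72149 in KO library 2 and 66531 in WT library 2. In each genotype library 1 is the sample whose label carries no number. KO MycHet library 1 was not short in this way, with 47214 peaks against 53722 in KO MycHet library 2. Calling a gene when both libraries of a genotype had a peak and neither of the other did, 0 members were KO only against WT (0.0277% of all genes) and 0 were WT only (0.0231%). Likewise 0 members were KO MycHet only against KO (0.411%) and 0 were KO only against KO MycHet (0.0416%). An exact two-sided permutation test of 2 libraries against 2 cannot give a p below 0.33, so none was run.

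The 7 genes that missed a short list had lower median ATAC-seq scores in the longer lists. KO library 1 lacked Atp6v0b, Ctsa, Gaa, Hexa and Grn, and WT library 1 lacked Atp6v0e, Gaa, Hexa, Grn and Cd63. In KO library 2 their median score was 316.99, against 709.65 for the 28 genes present in all 6 lists, and in WT library 2 it was 461.22, against 784.62. Grn had the lowest score of the 35 genes in KO MycHet library 2, KO library 2 and WT library 2, and Gaa had the lowest in KO MycHet library 1, 137.52. Grn scored 196.36 and 146.43 in KO MycHet, 187.53 in KO library 2 and 177.49 in WT library 2. Npc2 was the highest or among the 3 highest in each of the 6 lists, with 846.32 and 1000.77 in KO MycHet, 265.86 and 1429.88 in KO and 265.85 and 1209.6 in WT. Tfeb had 561.98 and 494.15 in KO MycHet, 75.08 and 700.25 in KO and 71.41 and 893.43 in WT.

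Peaks inside the genes, beyond 1 kb of either end, added to the values of Tfeb and Cd63. Tfeb had 3 internal H3K27ac peaks in KO, with scores of 76.54, 56.74 and 107.07, and 2 internal MYC peaks in KO, with scores of 84.5 and 122.7, and none of either in WT. Cd63 had H3K27ac peaks of 113.05 and 61.54 in KO near its internal start, where WT had none. Mitf had 2 internal H3K27ac peaks in KO, with scores of 52.8 and 97.71, and 2 in WT, with scores of 84.12 and 100.12. In all, 9 of 35 members had an internal H3K27ac peak in KO (25.7%) and 3 in WT (8.57%), against 21.4% and 13.2% of 19187 genes long enough to have one. An internal MYC peak was found in 5 members in KO (14.3%) and 2 in WT (5.71%), against 25.1% and 12.5% of those genes. Among the MYC peaks, Scarb2 had one of 137.24 in KO, higher than the peak at its start.

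A wider list of 107 other lysosomal genes, further hydrolases, membrane proteins, sorting factors, V-ATPase subunits and regulators of the MiT/TFE factors, stood nearer to the background among genes with H3K4me3 in both genotypes. H3K27ac was present at 60 of the 107 in KO and 22 in WT, where 39.6% and 14.6% of all genes carried it. It was KO only at 40 (37.4%, against 25.8% of all genes) and WT only at 2 (1.87%, against 0.767%). Of the 88 with H3K4me3 in both genotypes, 39 (44.3%) had H3K27ac in KO only, against 46.7%, and 26 (29.5%) had MYC in KO only, against 24.8%. The highest KO-only H3K27ac scores of the list were 503.4 at Gla, the alpha-galactosidase, 460.59 at Lmbrd1, which takes part in the export of cobalamin, 360.31 at Dnase2a, an acid nuclease, 330.24 at Man2b1, an alpha-mannosidase, 312.11 at Ctns, the cystine exporter, and 306.09 at Rnasek. WT-only H3K27ac was at Atp6v1c2, an alternative C subunit, with 130.16, and at Sumf1, which activates sulfatases, with 58.15.

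For MYC, the same list of 107 had a peak at 41 genes in KO and 17 in WT, where 22.3% and 10.3% of all genes had one. Of the list, 27 were KO only (25.2%, against 14.4% of all genes) and 3 WT only (2.80%, against 2.35%). The highest in KO only were Atp6v1g2 at 189.76, the chloride-proton exchanger Clcn6 at 187.62, Flcn at 167.57, the adaptor subunit Ap1m1 at 155.72, the ganglioside activator Gm2a at 121.49 and Ctns at 114.82. Flcn, folliculin, takes part in the control of TFE3 and TFEB by mTORC1. In WT only were the sialic acid exporter Slc17a5 at 117.35, Rnasek at 84.6 and the phospholipase Pla2g15 at 79.64. Rnasek thus had H3K27ac in KO only and MYC in WT only. H3K4me3 was KO only at 3 genes (2.80%, against 2.94% of all genes). These were Cln3, a membrane protein lost in a childhood neurodegeneration, with 398.45, the protease Ctss with 75.43 and the sorting receptor Igf2r with 74.92. An ATAC-seq peak in both KO MycHet and neither KO library was found at 1 gene of the list, Lmbrd1, against 0.411% of all genes.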

How the data were processed

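Peaks of ChIP-seq and ATAC-seq were given as 12 lists, 1 per library, so the authors called peaks per sample. Each peak has a position and a score, which the authors deposited with it. Per the submitters' processing notes, reads went through CASAVA and the build was mm10. For the aligner, the caller's version and settings and any input control, the sources used here give nothing. RNA-seq of 8 samples was not analysed here.

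Chromosomes 1 to 19 and X were used, and peaks were joined to genes of GRCm38.p6 when they shared at least 1 bp with a window of 1 kb around either gene end. A gene was KO only with a KO peak and no WT peak in these windows. For ATAC-seq, both libraries of 1 group and neither of the other had to hold the peak. Transcript starts, strands and promoter sequences came from RefSeq for 29 members. The members and lists were chosen with earlier results of these data known. The genes named are all 35 members, Mtor, and, from the wider list, those with the highest scores for H3K27ac and MYC (6 in KO only, 4 in WT only), and up to 4 for H3K4me3 and ATAC-seq. Neighbouring genes were named where they share a peak. No test was possible for ChIP-seq. The window search was checked against bedtools 2.31.1 on all 12 lists and tested on simulated data. Python 3.11.15, numpy 2.4.6, pandas 2.3.3 and matplotlib 3.10.9 were used. Alternatives were other windows, a score minimum, equal list lengths, the annotated start only, leaving out 1 library, and, chosen after seeing the data, the set of genes that carry H3K4me3 in both genotypes, and the members whose peaks lie at no other gene.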

Additional observations from a re-analysis of the deposited data

How the results depend on the processing

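Read depth is unknown and each ChIP-seq value rests on 1 library, and the KO and WT lists differ in length. H3K27ac in KO only, reported at 21 genes, was found at between 14 and 22 under the alternatives. The fewest, 14, came with equal numbers of peaks and, of 25, among members whose peaks lie at no other gene. With equal numbers they were 40.0% of the members, against 18.4% of all genes. Among genes with H3K4me3 in both genotypes they were 41.2%, against 34.2%. With equal numbers of peaks, 4 genes had MYC in KO only (11.4%, against 5.67% of all genes), also among the genes with H3K4me3 in both genotypes. MYC was then WT only at 1 (2.86%, against 4.59% of all genes), which is 1 among those genes (2.94%, against 7.71%). H3K27ac was WT only at 2 (2 among those genes), namely Atp6v1d and Neu1 (5.71%, against 1.78% of all genes). At scores of at least 100, MYC was KO only at 5 genes (14.3%, against 6.17% of all genes). H3K27ac was then WT only at 1, Atp6v1d (2.86%, against 0.153%), whose overlapping KO peak scored 95.57, below that minimum. Among members whose peaks lie at no other gene, an alternative chosen after seeing the data like the set with H3K4me3 in both genotypes, 7 of 27 (25.9%) had MYC in KO only. No share over all genes was counted for that alternative.

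H3K4me3 in KO only was found at 0 genes with a 500 bp window, 0 with a 2.5 kb window and 0 at the annotated start only, against 3.0%, 2.72% and 2.43% of all genes. When the peak's centre had to lie in the window, 2 were KO only, Tfe3 and Lamp1 (5.71%, against 3.31% of all genes). That setting gave 2 in WT only, Atp6v1b2 and Ctsa (5.71%, against 3.91%). Each of these named genes carried overlapping H3K4me3 peaks in both genotypes in the main count. For ATAC-seq, leaving out 1 library gave between 0 and 2 genes in KO only against WT, between 0 and 2 in WT only, and between 0 and 5 in KO MycHet only against KO, and the upper values are 5.71%, 5.71% and 14.3% of the members, against 4.56%, 4.65% and 15.5% of all genes. They came without library 2 of WT (Atp6v0e, Cd63), without library 2 of KO (Atp6v0b, Ctsa) and without library 2 of KO (Atp6v0b, Ctsa, Gaa, Hexa, Grn). As a replicate block, libraries paired by number, number 1 gave 2 KO only, 2 WT only and 5 KO MycHet only genes (against 4.63%, 4.70% and 17.5% of all genes), and number 2 gave 0, 0 and 0. The labels do not say what the number marks, so libraries that share a number need not form a block. For KO MycHet against KO, number 1 sets a list of 47214 peaks against one of 19174. The 5 genes it gave are those that KO library 1 lacked.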
